A study of Mus musculus with 27 samples.

Results

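The comparison described here is that of lungs of C57L/J mice exposed to 12.5 Gy with lungs of sham-irradiated C57L/J mice, 6 arrays of the 27 in the series. Its members were taken from the array titles: 3 arrays at 12.5 Gy and 3 at 0 Gy. All animals were females of 10 to 12 weeks, and every irradiated mouse had received a single exposure of the whole thorax to 320 kVp X-rays with the head, abdomen and forelimbs shielded. Lungs were taken 24 h later, the right upper lobe of each mouse was hybridised to 1 Affymetrix mouse expression array, and no samples were pooled. The other arrays, set beside these only where a difference was tested, came from C57L/J mice at 15 Gy and from C57BL/6J and CBA/J mice at 0, 12.5 and 15 Gy, with 3 mice in each of the 9 groups. C57L/J is an inbred strain used as a model of radiation-sensitive lung, so the mice of a group share 1 genotype. The labels name no transgene or drug in any group.

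Ionising radiation breaks DNA, and the damage kinases that sense the breaks stabilise the transcription factor p53. p53 then switches on genes that halt the cell cycle, genes that trigger apoptosis and genes that restrain p53 itself. Resting lymphocytes are among the most radiosensitive cells of the body, while the epithelium and endothelium of the adult lung divide slowly. The lung holds B cells, T cells, natural killer cells and dendritic cells beside its resident macrophages, and a sample of whole lobe carries the transcripts of all of them.

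Depth on an array is signal above background. The median intensity ran from 130.3 to 146.3 over the 6 arrays, between 17.1% and 19.3% of the probe sets lay below an intensity of 32, and pairs of arrays correlated at 0.944 to 0.959. All levels below are log2 of the deposited intensity, and a change is the mean of the 12.5 Gy mice minus that of the sham mice, with the standard error (SE) of limma and n = 3 mice per group unless stated. A level under 5 was treated as near background. Lung markers were high on all 6 arrays: surfactant protein C (Sftpc) at 14.23 to 14.83, the club cell secretoglobin Scgb1a1 at 14.62 to 15.23, the alveolar type I receptor Ager at 14.36 to 14.64, the endothelial cadherin Cdh5 at 12.58 to 12.90 and the ciliated cell factor Foxj1 at 9.50 to 10.41. Neighbouring tissue was low or uneven. The mean of 13 skeletal muscle genes lay between 5.67 and 6.17 on the 6 arrays, and those of the squamous and thyroid lists lay at or below 5.90. The mean of 11 heart muscle genes, which the sleeves of the pulmonary veins also express, was 10.08, 10.09 and 9.84 in the 12.5 Gy mice, against 11.44, 11.12 and 8.66 in the sham mice. Sham mouse 3 also had the highest mean of 9 immature thymocyte genes, at 7.06 against 5.53 to 5.90 on the other 5 arrays, and 12.5 Gy mouse 1 the highest means of 10 fat genes, at 10.12, and of 7 lymph node stroma and venule genes, at 8.23.

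The study called genes at p under 0.01 without adjustment, here named the criterion. By limma 822 of 18194 genes differed between 12.5 Gy and sham lungs at this criterion (4.52%) and 2371 at p under 0.05 (13%). Of the 822, 304 were higher (1.67%) and 518 lower (2.85%), and 182 calls would arise by chance. Each count of list members at the criterion below is to be read against these shares. After Benjamini-Hochberg adjustment in limma 94 genes passed at 0.05 (0.517%), 35 that rose (0.192%) and 59 that fell (0.324%). The words rose and fell are kept for these genes. Among the 94, 80 changed at least 2-fold and 12 had a group mean near background. Every one of the 94 separated the 3 irradiated mice from the 3 sham mice, as did 21.1% of all genes (9.74% higher and 11.3% lower). By sign alone, 48.0% of all genes were higher and 52.0% lower in the irradiated mice. The split of the criterion's genes moved with scaling: 416 were higher and 345 lower after median-centring of each array, and 366 higher and 443 lower after quantile normalization. The adjusted calls rested on all 6 arrays, since leaving out any 1 of sham mice 1 to 3 or of 12.5 Gy mice 1 to 3 left 0 genes at an adjusted p under 0.05 and 554 to 699 at the criterion, the fewest without 12.5 Gy mouse 3. No exact permutation p between groups of this size can lie below 0.1, so single genes are judged by the limma fit over all genes.

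**Figure D1:**
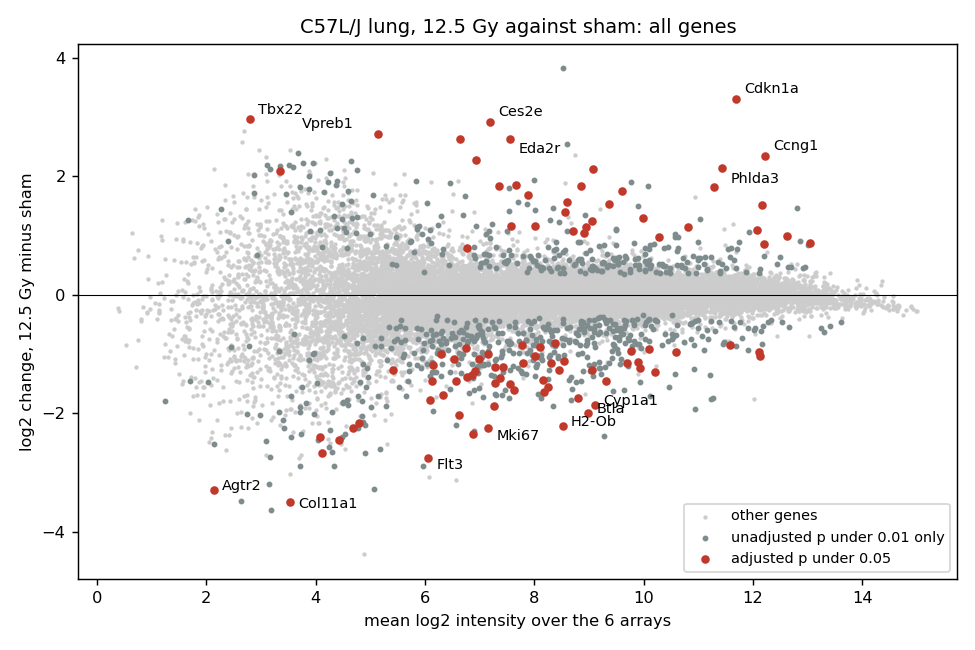
Each dot is 1 of 18194 genes, with its mean log2 intensity over the 6 arrays on the horizontal axis and its log2 change, 12.5 Gy minus sham, on the vertical axis; red marks the 94 genes with an adjusted p under 0.05 and dark grey those at the unadjusted criterion only. Cdkn1a and Ccng1 lie far above the cloud at high intensity, while the largest changes at the left, such as Tbx22, Agtr2 and Col11a1, belong to genes near background.

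The p53 targets that arrest the cell cycle and feed back on p53 stood highest. Of the 23 measured members of that list, 7 rose and 0 fell, and 13 were higher at the criterion, against 1.67% of all genes; the median change of the list was 0.56, against -0.01 over all genes. Cdkn1a, the cyclin-dependent kinase inhibitor p21, lay at 13.33, 13.15 and 13.52 in the 12.5 Gy mice, against 10.35, 9.85 and 9.91 in the sham mice. The lowest irradiated mouse lay nearly 3 units above the highest sham mouse. Cdkn1a rose by 3.30 ± 0.18 (limma adjusted p = 0.019, 9.84-fold). Ccng1, a cyclin that feeds back on Mdm2 and p53, lay at 13.36, 13.38 and 13.40 in the 12.5 Gy mice, against 10.85, 11.08 and 11.19 in the sham mice. The irradiated mice were almost identical and all sham mice lay over 2 units lower. Ccng1 rose by 2.34 ± 0.12 (limma adjusted p = 0.019, 5.06-fold). Phlda3, which binds phosphoinositides and restrains Akt, lay at 12.45, 12.46 and 12.60 in the 12.5 Gy mice, against 10.26, 10.29 and 10.55 in the sham mice, again with a wide gap between the groups. Phlda3 rose by 2.14 ± 0.12 (limma adjusted p = 0.019, 4.41-fold).

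Further members of that list rose by less. Sesn2, a stress sensor that limits mTORC1, lay at 10.05, 10.27 and 10.05 in the 12.5 Gy mice, against 8.54, 8.66 and 8.58 in the sham mice, and rose by 1.53 ± 0.11 (limma adjusted p = 0.0236). Zmat3, an RNA-binding zinc finger protein, rose by 1.30 ± 0.11 (limma adjusted p = 0.035). Gtse1, a mitotic protein that carries p53 out of the nucleus, lay at 8.08, 8.16 and 8.57 in the 12.5 Gy mice, against 6.61, 6.30 and 6.38 in the sham mice, and rose by 1.84 ± 0.17 (limma adjusted p = 0.0394). The groups of all 3 genes stood clear of each other. Ei24, an endoplasmic reticulum membrane protein chosen after its values were seen, rose 2.14-fold (limma adjusted p = 0.0394). Mdm2, the ubiquitin ligase that degrades p53, was higher by 0.79 ± 0.13 without passing after adjustment (limma adjusted p = 0.0855). Trp53inp1, a p53 cofactor that promotes autophagy, was higher by 0.91 ± 0.13 (limma adjusted p = 0.0701). Sesn1, a paralogue of Sesn2, changed by -0.39 ± 0.11 (limma adjusted p = 0.239), short of the criterion.

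The p53 targets of cell death were divided. Of 16 measured members 3 rose, 0 fell and 6 were higher at the criterion, against 1.67% of all genes, with a median change of 0.22. Eda2r, a death receptor of the tumour necrosis factor family, lay at 8.76, 8.90 and 8.97 in the 12.5 Gy mice, against 5.97, 6.02 and 6.74 in the sham mice. Sham mouse 3 was the highest of its group and still lay 2 units below every irradiated mouse. Eda2r rose by 2.63 ± 0.23 (limma adjusted p = 0.0394, 6.21-fold). Ddias, an anti-apoptotic gene that DNA damage induces, lay at 7.85, 8.05 and 7.97 in the 12.5 Gy mice, against 5.51, 5.09 and 5.40 in the sham mice, with no overlap. Ddias rose by 2.62 ± 0.14 (limma adjusted p = 0.019, 6.15-fold). Bbc3, the BH3-only killer PUMA, lay at 9.66, 9.54 and 9.84 in the 12.5 Gy mice, against 8.59, 8.30 and 8.42 in the sham mice, and rose by 1.24 ± 0.13 (limma adjusted p = 0.0402). Pmaip1 (NOXA), a BH3-only protein, was higher by 1.09 ± 0.17, Aen, a nuclease of apoptotic DNA, by 1.50 ± 0.25, and Apaf1, the core of the apoptosome, by 0.62 ± 0.12, each at the criterion but not after adjustment (adjusted p = 0.08, 0.0865 and 0.121). The death receptor Fas lay at 9.68, 9.36 and 9.46 in the 12.5 Gy mice, against 9.51, 9.21 and 8.96 in the sham mice, where the groups overlapped, with a change of 0.28 ± 0.18 (limma adjusted p = 0.579).

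Of 12 measured p53 targets in DNA repair and metabolism 2 rose and 4 were higher at the criterion, against 1.67% of all genes. Ces2e, a carboxylesterase that hydrolyses esters and amides, lay at 8.24, 8.79 and 8.91 in the 12.5 Gy mice, against 5.42, 5.56 and 6.24 in the sham mice, and the sham mice reached at most 6.24. Ces2e rose by 2.91 ± 0.29 (limma adjusted p = 0.0394, 7.5-fold). Dglucy, a mitochondrial enzyme that degrades D-glutamate, lay at 10.00, 10.15 and 10.22 in the 12.5 Gy mice, against 7.78, 7.86 and 8.40 in the sham mice, and rose by 2.11 ± 0.19 (limma adjusted p = 0.0394). Polk, a translesion DNA polymerase, was higher by 0.87 ± 0.11 (limma adjusted p = 0.0551) and Ckap2, a spindle protein, by 1.67 ± 0.27 (limma adjusted p = 0.0826). Over the 3 p53 lists together 12 of 51 measured members rose, 0 fell and 23 were higher at the criterion. Leaving out any 1 of the 6 arrays left 10 to 12 members of the arrest list, 6 to 7 of the death list and 4 of the repair and metabolism list at the criterion.

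**Figure D2:**
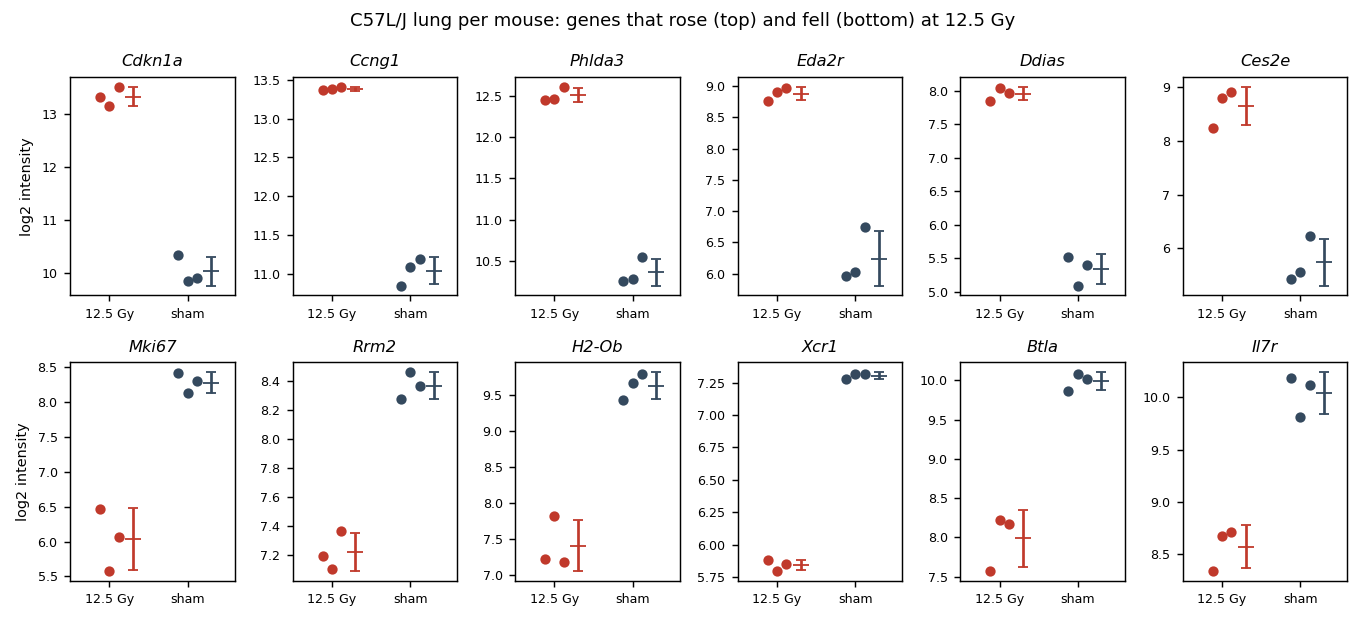
Log2 intensity in each mouse for 6 genes that rose (top row) and 6 that fell (bottom row), with 12.5 Gy in red left of sham in blue; dots are mice and the bars beside them the mean ± SD, and each panel has its own axis. In all 12 panels the groups do not overlap.

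The promoters of the genes that rose were searched for letters of the p53 response element, since p53 binds DNA as pairs of a consensus decamer. RefSeq promoters (build GRCm38.p6), 250 bases before the start site, were available for 14453 of the genes. On either strand a perfect match to 1 decamer stood before 1085 of them (7.51%). It stood before 9 of the 30 genes with a promoter that rose (30.0%) and before 3 of the 51 that fell (5.88%). Of the 9, 8 are printed with 15 bases on either side to show how the decamer varies, with the matches in capitals. The window of each ended at the start site.
Cdkn1a (chr17:29090891-29090952, plus strand): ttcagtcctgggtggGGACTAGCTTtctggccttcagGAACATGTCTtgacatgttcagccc
Ccng1 (chr11:40755447-40755486, minus strand): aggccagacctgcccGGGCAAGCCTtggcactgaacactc
Celf5 (chr10:81482857-81482896, minus strand): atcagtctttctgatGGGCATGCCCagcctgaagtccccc
Ddit4l (chr3:137623567-137623606, plus strand): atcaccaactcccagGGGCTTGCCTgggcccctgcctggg
Exoc4 (chr6:33248910-33248949, plus strand): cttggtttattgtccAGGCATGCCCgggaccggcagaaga
Slc2a9 (chr5:38483535-38483574, minus strand): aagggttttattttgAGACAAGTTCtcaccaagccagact
Ei24 (chr9:36797335-36797359, minus strand): tgccccgtgcggcccGGGCATGCCC
Vpreb1 (chr16:16869361-16869400, minus strand): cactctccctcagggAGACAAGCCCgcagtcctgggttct
Cdkn1a held 2 separate decamers in this window and the others shown 1 each. Phlda3 and Eda2r held no perfect decamer here, which says nothing of more distant or imperfect sites. A match is a description of letters and no measurement of binding.

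Among the 15 largest rises were genes outside the p53 lists. Celf5, an RNA-binding protein that regulates splicing, lay at 7.90, 7.90 and 8.38 in the 12.5 Gy mice, against 5.63, 5.84 and 5.90 in the sham mice, well apart, and rose by 2.27 ± 0.17 (limma adjusted p = 0.0297). Ddit4l, a relative of the mTOR inhibitor Ddit4, rose by 1.84 ± 0.18 (limma adjusted p = 0.0394). Psrc1, a microtubule-associated protein, rose by 1.85 ± 0.18 (limma adjusted p = 0.0394). Exoc4, a subunit of the exocyst that tethers secretory vesicles, lay at 12.38, 11.87 and 12.33 in the 12.5 Gy mice, against 10.22, 10.32 and 10.58 in the sham mice, and rose by 1.82 ± 0.19 (limma adjusted p = 0.0394). A pair of solute carriers was chosen after their values were seen. Slc19a2, a thiamine transporter, rose by 1.76 ± 0.12 (limma adjusted p = 0.0236), and Slc2a9, a urate transporter, rose by 1.68 ± 0.17 (limma adjusted p = 0.0394). Vpreb1, a surrogate light chain of the pre-B cell receptor, lay at 6.58, 6.72 and 6.18 in the 12.5 Gy mice, against 3.38, 3.61 and 4.38 in the sham mice, so that the sham level was near background. Vpreb1 rose by 2.70 ± 0.30 (limma adjusted p = 0.044, 6.52-fold). With a floor of 32 the change of Vpreb1 was 1.49. Tbx22, a T-box factor, and Efcab9, a calcium-binding protein of sperm, also passed, but with sham means of 1.32 and 2.30 and no irradiated mouse above 4.70, and with a floor of 32 both changes were 0.

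Further genes that rose are given singly, since the NRF2, matrix and capillary endothelium lists held 1, 0 and 0 genes that rose. Igf1, insulin-like growth factor 1, lay at 10.86, 10.82 and 10.63 in the 12.5 Gy mice, against 9.80, 9.83 and 9.73 in the sham mice. The 3 irradiated mice lay close together and above every sham mouse. Igf1 rose by 0.98 ± 0.10 (limma adjusted p = 0.0402, 1.97-fold). Ephx1, the microsomal epoxide hydrolase, rose by 1.00 ± 0.10 (limma adjusted p = 0.0394), the one gene of 25 in the NRF2 antioxidant list to rise, while the quinone reductase Nqo1 was higher by 0.51 ± 0.12 (limma adjusted p = 0.197). Mmrn2, an endothelial matrix protein, lay at 13.08, 12.81 and 12.89 in the 12.5 Gy mice, against 11.47, 11.14 and 11.61 in the sham mice, and rose by 1.52 ± 0.16 (limma adjusted p = 0.0394). Serpinh1, the collagen chaperone of the endoplasmic reticulum, lay at 12.74, 12.58 and 12.55 in the 12.5 Gy mice, against 11.77, 11.78 and 11.75 in the sham mice, and rose by 0.86 ± 0.10 (limma adjusted p = 0.0464). Ltc4s, the leukotriene C4 synthase, rose by 1.14 ± 0.11 (limma adjusted p = 0.0394). These last 3 genes were chosen after their values were seen.

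Proliferation genes were more often lower than higher. Of 49 measured mitosis genes 3 fell, 14 were lower and 1 was higher at the criterion, against 2.85% and 1.67% of all genes, with a median change of -0.55. Of 36 DNA replication genes 1 fell, 8 were lower and 0 were higher, with a median of -0.27, and leaving out 1 array left 3 to 5 members at the criterion, 3 without sham mouse 2 or 3. Mki67, the nuclear protein that marks cycling cells, lay at 6.46, 5.58 and 6.06 in the 12.5 Gy mice, against 8.42, 8.13 and 8.30 in the sham mice. Irradiated mouse 2 was lowest, and the groups lay at least 1.6 units apart. Mki67 fell by 2.25 ± 0.24 (limma adjusted p = 0.0403, a ratio of 0.21 to sham). Rrm2, the small subunit of ribonucleotide reductase, lay at 7.19, 7.11 and 7.37 in the 12.5 Gy mice, against 8.28, 8.46 and 8.37 in the sham mice, and fell by 1.15 ± 0.11 (limma adjusted p = 0.0394). Bub1, a kinase of the spindle checkpoint, lay at 5.76, 5.49 and 5.43 in the 12.5 Gy mice, against 6.71, 6.71 and 6.84 in the sham mice, and fell by 1.19 ± 0.13 (limma adjusted p = 0.0394), although another of its probe sets changed by 0.12 and it missed the criterion in the fit over all 27 arrays. Ndc80, a kinetochore subunit, passed from a level near background, 2.50, 2.80 and 3.07 in the 12.5 Gy mice, against 5.46, 5.62 and 5.31 in the sham mice, and changed by -0.46 with a floor of 32.

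Cyclin Ccnb2, which drives entry into mitosis, lay at 6.35, 6.44 and 6.49 in the 12.5 Gy mice, against 7.17, 7.11 and 7.04 in the sham mice, a clean separation at a modest change of -0.68 ± 0.10 (limma adjusted p = 0.0642). Nusap1, a spindle protein, changed by -1.67 ± 0.22 (limma adjusted p = 0.0569), and Cdt1, which licenses replication origins, by -0.89 ± 0.12 (limma adjusted p = 0.0569). Tk1, thymidine kinase, lay at 4.45, 2.52 and 4.67 in the 12.5 Gy mice, against 6.34, 6.44 and 6.69 in the sham mice, with 1 irradiated mouse far below the rest and a change of -2.61 ± 0.59 (limma adjusted p = 0.178). Ncaph, a subunit of condensin named because it was the exception, was higher, at 9.00, 9.30 and 9.12 in the 12.5 Gy mice, against 8.03, 7.81 and 8.35 in the sham mice (change 1.08 ± 0.17, limma adjusted p = 0.0826). Genes of DNA repair did not move as a list, with 15 of 30 higher, 15 lower and 3 at the criterion. Of these 3 Rad54l and Palb2, which act in homologous recombination, had changes of -0.98 ± 0.22 and -0.78 ± 0.15 (limma adjusted p = 0.176 and 0.127), and the mismatch repair gene Msh6 of 0.44 ± 0.12 (adjusted p = 0.219). Probe sets of Rad54l disagreed in direction.

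Many cell cycle promoters carry the CCAAT box, bound by NF-Y, and the cell cycle homology element TTTGAA, bound by the MuvB complexes through which p21 represses these genes. In the mitosis and replication lists 47 of the 70 genes with a promoter held CCAAT (67.1%) and 20 held TTTGAA (28.6%), against 39.4% and 14.1% of all genes with a promoter. The share with CCAAT was not particular to these lists. It was 68.8% in the circadian clock list, 53.3% among the genes that rose and 52.9% among those that fell. For TTTGAA these shares were 0%, 13.3% and 23.5%. Both strands were searched, so that ATTGG and TTCAAA also count, and no match overlapped another in the windows printed. The promoters of 4 genes are shown for their spacing, with both motifs in capitals.
Mki67 (chr7:135716457-135716582, minus strand): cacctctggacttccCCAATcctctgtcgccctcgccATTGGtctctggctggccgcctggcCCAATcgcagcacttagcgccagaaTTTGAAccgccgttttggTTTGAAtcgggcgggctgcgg
Kif11 (chr19:37376322-37376381, plus strand): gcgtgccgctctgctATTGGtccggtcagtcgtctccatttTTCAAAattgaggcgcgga
Bub1 (chr2:127831882-127831942, minus strand): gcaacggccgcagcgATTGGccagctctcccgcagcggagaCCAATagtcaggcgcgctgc
Rrm2 (chr12:24708189-24708223, plus strand): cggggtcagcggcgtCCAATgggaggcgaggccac
Mki67 held 3 CCAAT and 2 TTTGAA matches, Kif11 1 of each, Bub1 2 of CCAAT and Rrm2 1 of CCAAT. Kif11, a kinesin that separates spindle poles, lay at 6.25, 6.20 and 6.16 in the 12.5 Gy mice, against 7.06, 6.75 and 6.93 in the sham mice, and changed by -0.71 ± 0.11 (limma adjusted p = 0.0826). Among the 19 genes of these lists with a promoter that were lower at the criterion, 13 held CCAAT (68.4%) and 4 held TTTGAA (21.1%).

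B cell transcripts had a negative change in 27 of 27 measured members, as did 52.0% of all genes. Of these, 6 fell and 20 were lower at the criterion, and the median change was -1.28. In whole-lobe RNA, fewer cells of a type and less RNA per cell cannot be told apart. Siglecg, a lectin that damps B cell receptor signals, lay at 5.98, 6.54 and 6.47 in the 12.5 Gy mice, against 8.39, 8.01 and 8.23 in the sham mice. The groups lay more than 1 unit apart. Siglecg fell by 1.88 ± 0.20 (limma adjusted p = 0.0394, a ratio of 0.27 to sham). Blk, a Src-family kinase of the receptor, lay at 7.55, 7.48 and 7.04 in the 12.5 Gy mice, against 8.90, 9.10 and 9.00 in the sham mice, and fell by 1.64 ± 0.17 (limma adjusted p = 0.0394). Tnfrsf13b (TACI), the receptor for BAFF and APRIL, fell by 1.55 ± 0.18 (limma adjusted p = 0.0464). Cd37, a tetraspanin, fell by 1.44 ± 0.14 (limma adjusted p = 0.0394), and Bank1, a scaffold of receptor signalling, fell by 1.28 ± 0.15 (limma adjusted p = 0.0471). The receptor subunit Cd79a, chosen after its values were seen, lay at 7.48, 7.81 and 8.06 in the 12.5 Gy mice, against 9.11, 9.79 and 9.79 in the sham mice, clear of the sham mice, and missed the adjusted threshold at a change of -1.78 ± 0.25 (limma adjusted p = 0.0646). Sham mouse 1 held the lowest sham value for 21 of the 27 members. Without sham mouse 3 the members at the criterion numbered 13, and without any other single array 15 to 21.

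Immunoglobulin and plasma cell genes varied more between mice. Of 12 members 0 fell and 2 were lower at the criterion, Irf4, a factor of plasma cell and effector differentiation, with a change of -1.17 ± 0.16 (limma adjusted p = 0.0631), and Mzb1, a chaperone of immunoglobulin, with -0.73 ± 0.15 (limma adjusted p = 0.148). The second probe set of Irf4 changed by 0.59. Ighm, the mu heavy chain chosen after its values were seen, lay at 12.93, 10.31 and 10.18 in the 12.5 Gy mice, against 13.11, 13.80 and 11.80 in the sham mice, where the groups overlapped (change -1.76 ± 0.91, limma adjusted p = 0.493). These are values of its brightest probe set. Of its 11 probe sets 3 were higher and 8 lower, with changes from -1.84 to 0.63 and 0 at the criterion. Irradiated mouse 1 lay with the sham mice for this gene and not for Siglecg, Blk and Cd79a. The same array had the highest mean of 7 genes of lymph node stroma and venules, 8.23 against 7.06 to 7.47 on the other 5, with the follicular chemokine Cxcl13 at 11.70, 8.07 and 8.45 in the 12.5 Gy mice, against 9.03, 8.47 and 8.11 in the sham mice and the venule mucin Glycam1 at 6.40, 1.84 and 1.03 in the 12.5 Gy mice, against 1.40, 2.02 and 2.14 in the sham mice. The part of such transcripts in the Ighm level was not tested.

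T cell transcripts were lower too, with fewer single calls after adjustment. Of 36 measured members 1 fell, 23 were lower and 0 higher at the criterion, and the median change was -1.12. Il7r, the receptor chain through which interleukin 7 keeps lymphocytes alive, lay at 8.34, 8.67 and 8.71 in the 12.5 Gy mice, against 10.18, 9.81 and 10.12 in the sham mice. All irradiated mice lay more than 1 unit below the lowest sham mouse. Il7r fell by 1.47 ± 0.16 (limma adjusted p = 0.0432, a ratio of 0.36 to sham). Cd3d, a subunit of the T cell receptor complex, lay at 7.77, 7.95 and 7.99 in the 12.5 Gy mice, against 9.15, 9.46 and 9.85 in the sham mice, with a change of -1.59 ± 0.20 (limma adjusted p = 0.0506). Cd5, a damper of receptor signals, lay at 5.66, 5.83 and 5.47 in the 12.5 Gy mice, against 7.28, 6.89 and 7.60 in the sham mice, with a change of -1.60 ± 0.21 (limma adjusted p = 0.0558). For both the groups were clear of each other and sham mouse 3 was highest. Ccr7, the receptor that guides naive T cells and dendritic cells to lymph nodes, changed by -1.43 ± 0.21 (limma adjusted p = 0.0747) and Prkcq, a kinase of the immune synapse, by -1.28 ± 0.19 (limma adjusted p = 0.0683). Without sham mouse 3, in which immature thymocyte genes were highest, 17 members met the criterion and the median change was -0.93, and without any other array 17 to 20 did.

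A trio of transcription factors of cytotoxic and type 1 lymphocytes fell. Eomes, a T-box factor of natural killer and memory CD8 T cells, lay at 6.66, 6.50 and 6.85 in the 12.5 Gy mice, against 7.93, 8.04 and 8.25 in the sham mice, and fell by 1.40 ± 0.14 (limma adjusted p = 0.0394). Tbx21 (T-bet), which directs type 1 T helper differentiation, lay at 6.58, 6.77 and 6.66 in the 12.5 Gy mice, against 7.68, 7.86 and 8.12 in the sham mice, and fell by 1.21 ± 0.14 (limma adjusted p = 0.0471). Runx3, a factor of CD8 T cell identity, lay at 5.99, 6.02 and 5.95 in the 12.5 Gy mice, against 7.17, 6.90 and 7.14 in the sham mice, and fell by 1.08 ± 0.11 (limma adjusted p = 0.0394), with a change of 0.09 in its other probe set. No irradiated mouse overlapped the sham mice in any of the 3. They were the only members of 20 T helper and regulatory regulators to pass after adjustment, and 6 of the 20 were lower and 0 higher at the criterion. Ifng, interferon gamma, one of the 6, lay near background in the irradiated mice, at 4.42, 3.95 and 4.06 in the 12.5 Gy mice, against 5.52, 5.48 and 6.12 in the sham mice. Of 20 natural killer and cytotoxic genes 0 fell and 6 were lower at the criterion, with a median change of -0.81, and leaving out 1 array left 2 to 7, the fewest without 12.5 Gy mouse 3. The inhibitory receptor Klrc1 changed by -0.97 ± 0.16 (limma adjusted p = 0.0849), the activating receptor Ncr1 by -1.08 ± 0.20 (limma adjusted p = 0.124) and the chemokine Ccl5 by -1.61 ± 0.28 (limma adjusted p = 0.101).

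Btla, an inhibitory receptor of B and T cells, was among the largest falls, at 7.57, 8.22 and 8.17 in the 12.5 Gy mice, against 9.87, 10.08 and 10.02 in the sham mice. Irradiated mouse 1 was lowest, and the nearest mice of both groups lay over 1.6 units apart. Btla fell by 2.00 ± 0.20 (limma adjusted p = 0.0394, a ratio of 0.25 to sham). The pan-leukocyte phosphatase Ptprc (CD45) lay at 11.55, 11.47 and 11.32 in the 12.5 Gy mice, against 12.16, 12.39 and 12.60 in the sham mice, also without overlap, with a change of -0.93 ± 0.15 (limma adjusted p = 0.0795). The change of Ptprc was smaller than the median of the B cell list.

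Antigen presentation on MHC class II was lower in 10 of 11 measured members (52.0% of all genes were lower), with 3 that fell, 9 lower at the criterion and a median change of -0.83. H2-Ob and H2-Oa form the DO heterodimer, which restrains peptide loading and is made chiefly in B cells and some dendritic cells. H2-Ob lay at 7.23, 7.82 and 7.19 in the 12.5 Gy mice, against 9.43, 9.66 and 9.79 in the sham mice. The groups lay more than 1.6 units apart. H2-Ob fell by 2.22 ± 0.21 (limma adjusted p = 0.0394, a ratio of 0.22 to sham). H2-Oa lay at 6.68, 6.92 and 6.83 in the 12.5 Gy mice, against 8.05, 8.55 and 8.68 in the sham mice, and fell by 1.62 ± 0.19 (limma adjusted p = 0.0471). H2-Eb1, the beta chain of a class II molecule, lay at 11.51, 11.77 and 11.58 in the 12.5 Gy mice, against 12.65, 12.52 and 12.59 in the sham mice, at high signal and with a narrow spread in both groups, and fell by 0.97 ± 0.11 (limma adjusted p = 0.0464). H2-Ab1, another beta chain, changed by -0.83 ± 0.10 (limma adjusted p = 0.0525). Cd74, the invariant chain, chosen after its values were seen, changed by -0.53 ± 0.12 (limma adjusted p = 0.171). Leaving out 1 array left 6 to 8 members at the criterion, the fewest without sham mouse 2. None of 12 MHC class I and immunoproteasome genes met the criterion in limma, 0 at an unadjusted p under 0.05 either, with changes between -0.20 and 0.33.

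Of 20 measured dendritic cell genes 4 fell, 7 were lower and 1 was higher at the criterion, against 2.85% and 1.67% of all genes. The median change was -0.37, and 4 of the 20 had a positive change. The member higher at the criterion was Bst2, by 0.97 ± 0.16 (limma adjusted p = 0.0826), which the interferon list also holds. Flt3, the receptor whose ligand sustains dendritic cells and their precursors, lay at 4.91, 5.02 and 4.12 in the 12.5 Gy mice, against 7.48, 7.38 and 7.44 in the sham mice. The sham mice lay within 0.1 unit of each other and the irradiated mice more than 2 units below, with a mean near background. Flt3 fell by 2.75 ± 0.26 (limma adjusted p = 0.0394, a ratio of 0.15 to sham). Xcr1, the chemokine receptor of cross-presenting dendritic cells, lay at 5.88, 5.80 and 5.85 in the 12.5 Gy mice, against 7.27, 7.32 and 7.32 in the sham mice. Within each group the mice differed by under 0.1 unit. Xcr1 fell by 1.46 ± 0.09 (limma adjusted p = 0.0193, a ratio of 0.36 to sham). Irf8, the factor that specifies this subset, lay at 9.63, 9.65 and 9.62 in the 12.5 Gy mice, against 10.51, 10.56 and 10.60 in the sham mice, and fell by 0.92 ± 0.09 (limma adjusted p = 0.0394). Ccl17, a chemokine of mature dendritic cells, fell by 1.00 ± 0.12 (limma adjusted p = 0.0471). Batf3, which acts with Irf8, changed by -0.73 ± 0.13 (limma adjusted p = 0.0995).

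The 15 largest falls also held genes near background, where the floor decides the size. Agtr2, the type 2 angiotensin receptor, lay at 0.59, 0.00 and 0.89 in the 12.5 Gy mice, against 3.99, 3.20 and 4.16 in the sham mice, and Col11a1, a minor fibrillar collagen, at 2.49, 1.84 and 1.05 in the 12.5 Gy mice, against 5.41, 5.22 and 5.25 in the sham mice. Agtr2 fell by 3.29 ± 0.35 (limma adjusted p = 0.0394) and Col11a1 fell by 3.50 ± 0.36 (limma adjusted p = 0.0394), and with a floor of 32 their changes were 0 and -0.29. Timd2, Cdh20, Rnase1 and Cib4 also passed, with irradiated means below 5 and sham means from 5.28 to 5.88. Hepacam2, an adhesion molecule of secretory epithelium, stood clear of background at 5.81, 5.31 and 5.69 in the 12.5 Gy mice, against 7.75, 7.40 and 7.75 in the sham mice, and fell by 2.03 ± 0.18 (limma adjusted p = 0.0394).

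Macrophage and monocyte genes were divided. Of 17 alveolar macrophage genes 1 met the criterion (5.88%, against 4.52% of all genes). Car4, a carbonic anhydrase that capillary endothelium also carries, was that gene. Car4 lay at 11.17, 11.16 and 11.14 in the 12.5 Gy mice, against 11.95, 12.06 and 12.00 in the sham mice, and fell by 0.85 ± 0.09 (limma adjusted p = 0.0394). Of 21 genes of monocytes, interstitial macrophages and complement 2 were higher and 3 lower at the criterion, against 1.67% and 2.85% of all genes. The chemokine receptor Ccr2 lay at 8.36, 7.74 and 7.96 in the 12.5 Gy mice, against 9.33, 9.58 and 9.57 in the sham mice (change -1.47 ± 0.19, limma adjusted p = 0.0539), and Cx3cr1, another, changed by -1.05 ± 0.20 (limma adjusted p = 0.127). In both receptors every irradiated mouse lay below every sham mouse. The complement gene C1qa was higher by 0.48 ± 0.10 (limma adjusted p = 0.164). Retnla, a resistin-like protein of alternatively activated macrophages and airway epithelium, lay at 13.36, 13.62 and 13.65 in the 12.5 Gy mice, against 12.11, 12.36 and 11.77 in the sham mice, higher in each irradiated mouse than in any sham mouse, and missed adjustment narrowly at a change of 1.46 ± 0.18 (limma adjusted p = 0.0532).

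In the neutrophil and interferon lists most changes were positive, with 0 adjusted calls. In the neutrophil list 15 of 18 members were higher, against 48.0% of all genes, and the median change was 0.45. Of the 18, 1 met the criterion (5.56%, against 4.52% of all genes), and 0 did without sham mouse 1 or 3 or without 12.5 Gy mouse 2 or 3. Lcn2, the siderophore-binding lipocalin, lay at 12.09, 12.66 and 12.65 in the 12.5 Gy mice, against 11.01, 11.72 and 11.47 in the sham mice (change 1.06 ± 0.25, limma adjusted p = 0.195). The list's mean was lowest in sham mouse 1 (7.27, against 7.91 and 7.86 in the other sham mice), and its median change was 0.27 without that mouse. In the interferon-stimulated list 28 of 30 members were higher (48.0% of all genes), with a median of 0.44, and 2 met the criterion (6.67%, against 4.52% of all genes). Bst2, the tetherin that holds virions at the membrane, lay at 10.98, 11.21 and 10.96 in the 12.5 Gy mice, against 9.87, 10.07 and 10.32 in the sham mice (change 0.97 ± 0.16, limma adjusted p = 0.0826). Irf7, a master factor of type I interferon, lay at 10.17, 10.04 and 9.74 in the 12.5 Gy mice, against 9.15, 9.33 and 9.52 in the sham mice (change 0.65 ± 0.16, limma adjusted p = 0.209). Irradiated mouse 3 was the lowest of its group in 22 of the 30 members, and without it 6 met the criterion. Sham mouse 1 was the lowest of its group in 25, and without it the median change was 0.35 and 1 met the criterion. The list's mean overlapped between the groups, at 9.45, 9.68 and 9.02 in the 12.5 Gy mice, against 8.75, 8.92 and 9.22 in the sham mice. Rsad2 (viperin), an exception, lay at 9.63, 10.00 and 9.05 in the 12.5 Gy mice, against 10.09, 10.17 and 10.64 in the sham mice (change -0.74 ± 0.29, limma adjusted p = 0.369), and was chosen after its values were seen.

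**Figure D3:**
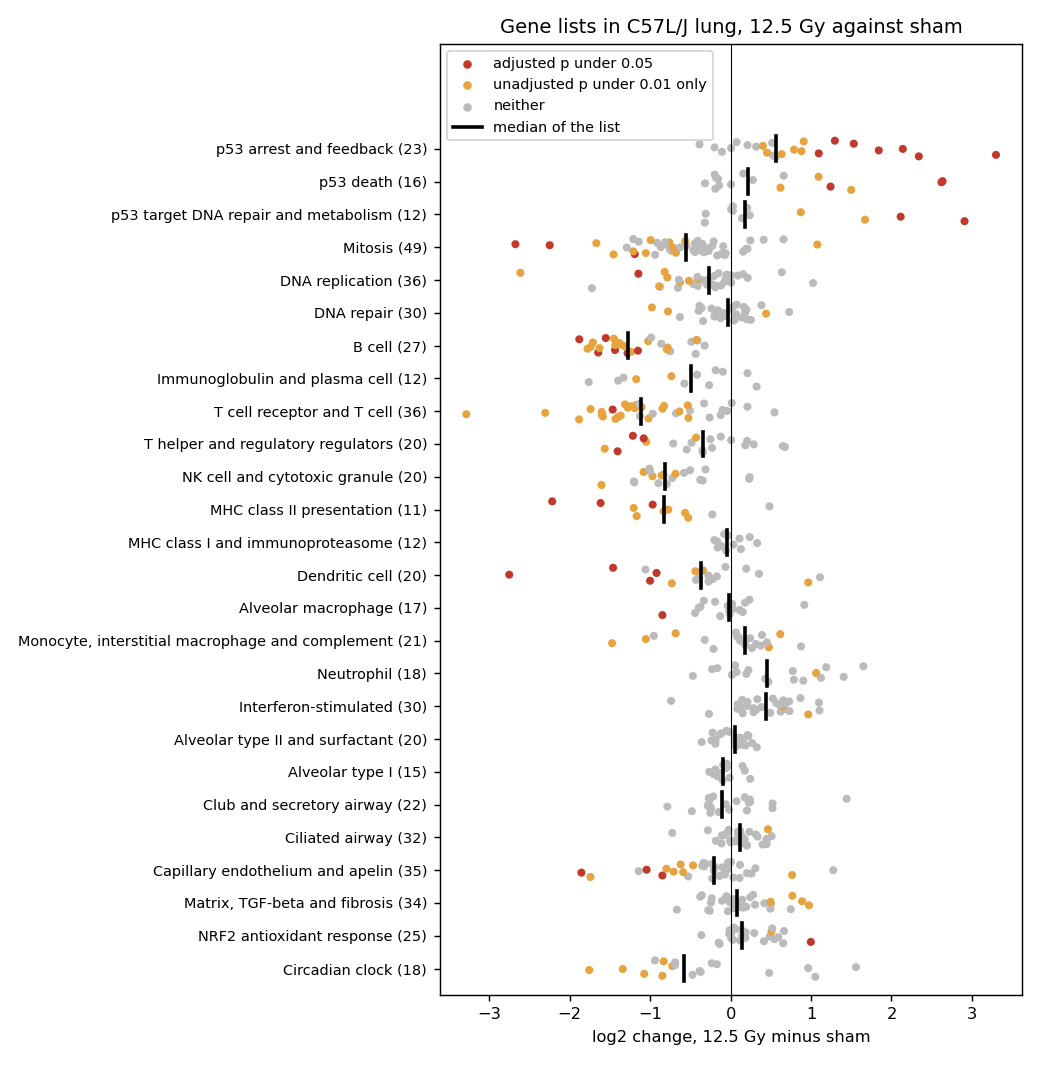
Log2 change, 12.5 Gy minus sham, for each measured gene of 26 lists (numbers of measured genes in parentheses); red marks an adjusted p under 0.05, orange an unadjusted p under 0.01 only, and the black bar the median of the list. The B cell, T cell, MHC class II and natural killer lists lie to the left of 0, the p53 arrest list to the right, and the epithelial lists are centred near 0.

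With all 6 arrays, none of 20 alveolar type II, 15 alveolar type I and 22 club cell genes met the criterion in limma, and 2, 0 and 3 of them had p under 0.05, against 13% of all genes. Their medians were 0.05, -0.09 and -0.10. The club cell list depended on single arrays: without sham mouse 3 its median was -0.36 and 4 members were lower at the criterion, without 12.5 Gy mouse 1 it had 1 member higher, and without sham mouse 2 its median was 0.15. Of the ciliated cell genes 1 of 32 met the criterion (3.12%, against 4.52% of all genes). The neuroendocrine peptide Grp lay at 6.29, 5.50 and 5.32 in the 12.5 Gy mice, against 7.82, 8.22 and 8.13 in the sham mice, and fell by 2.35 ± 0.28 (limma adjusted p = 0.0477), though it missed the criterion in the fit over all 27 arrays. Uchl1, a ubiquitin hydrolase of neuroendocrine cells and nerve, was higher, at 8.37, 8.99 and 8.85 in the 12.5 Gy mice, against 7.09, 7.36 and 7.45 in the sham mice (change 1.43 ± 0.20, limma adjusted p = 0.0646). Of 16 neuroendocrine genes these were the only ones at the criterion (12.5%, against 4.52% of all genes).

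Of 35 capillary endothelium genes 3 fell, 9 were lower and 1 higher at the criterion, against 2.85% and 1.67% of all genes. The median change was -0.21, and 9 of the 35 had a positive change. Leaving out 1 array left 5 to 8 lower at the criterion, 5 without sham mouse 2 or 3. Cyp1a1, the aryl hydrocarbon-inducible monooxygenase, lay at 8.22, 8.02 and 8.33 in the 12.5 Gy mice, against 9.97, 9.79 and 10.37 in the sham mice, over 1.4 units apart at the nearest mice, and fell by 1.85 ± 0.18 (limma adjusted p = 0.0394). Gpihbp1, which moves lipoprotein lipase to the capillary lumen, lay at 11.66, 11.40 and 11.73 in the 12.5 Gy mice, against 12.61, 12.64 and 12.67 in the sham mice, and fell by 1.04 ± 0.12 (limma adjusted p = 0.0464). Both it and Car4 mark capillary endothelium in the lung. Aplnr, the apelin receptor of capillary cells, lay at 10.82, 10.03 and 10.37 in the 12.5 Gy mice, against 11.78, 12.35 and 12.30 in the sham mice, with irradiated mouse 1 nearest the sham mice, and missed adjustment at a change of -1.74 ± 0.26 (limma adjusted p = 0.074). Cd34, a sialomucin of endothelium and progenitors, was the member that was higher, by 0.76 ± 0.12 (limma adjusted p = 0.0752). Cdh5 changed by -0.08 ± 0.13 (limma adjusted p = 0.849).

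The circadian clock runs on the activators Clock, Arntl (BMAL1) and Npas2, which bind E-boxes of the letters CACGTG, and on the repressors and output factors they drive. Of 18 members 0 passed after adjustment, 6 were lower and 0 higher at the criterion, and the groups did not overlap for 16, 12 lower and 4 higher, against 11.3% and 9.74% of all genes. Dbp, a PAR-bZIP output factor driven by E-boxes, lay at 11.02, 9.98 and 10.06 in the 12.5 Gy mice, against 11.91, 12.13 and 12.29 in the sham mice. Irradiated mouse 1 lay about 1 unit above the others of its group and still below the sham mice, and the change was -1.76 ± 0.31 (limma adjusted p = 0.101). Hlf, another PAR-bZIP factor, lay at 10.18, 9.75 and 9.76 in the 12.5 Gy mice, against 11.18, 11.07 and 11.46 in the sham mice (change -1.34 ± 0.18, limma adjusted p = 0.0556). Tef, the third, lay at 11.72, 11.74 and 11.80 in the 12.5 Gy mice, against 12.75, 12.51 and 12.49 in the sham mice (change -0.83 ± 0.11, limma adjusted p = 0.0571), although its probe sets disagreed in direction.

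Among the repressors Ciart, Nr1d1 and Bhlhe40 were lower at the criterion, while Per1, Per2 and Nfil3 did not meet it. Ciart, which represses the Clock complex, lay at 8.17, 7.94 and 7.58 in the 12.5 Gy mice, against 9.11, 8.79 and 9.01 in the sham mice (change -1.07 ± 0.18, limma adjusted p = 0.0968). Nr1d1 (REV-ERB alpha), which represses Arntl, lay at 9.47, 9.16 and 9.41 in the 12.5 Gy mice, against 10.03, 10.12 and 10.06 in the sham mice (change -0.72 ± 0.12, limma adjusted p = 0.0849). Bhlhe40, a repressor that competes for E-boxes, changed by -0.85 ± 0.22 (limma adjusted p = 0.217). The 4 genes with higher levels, short of the criterion, are named as the exceptions. Arntl lay at 7.24, 8.09 and 8.26 in the 12.5 Gy mice, against 7.20, 6.76 and 6.47 in the sham mice (change 1.05 ± 0.33, limma adjusted p = 0.285). Npas2 lay at 5.60, 7.22 and 7.01 in the 12.5 Gy mice, against 5.24, 5.39 and 4.52 in the sham mice (change 1.56 ± 0.49, limma adjusted p = 0.285). Clock changed by 0.48 ± 0.13 and Nfil3, a repressor of the PAR-bZIP targets, by 0.96 ± 0.38 (limma adjusted p = 0.224 and 0.378). For Dbp, Bhlhe40, Arntl and Npas2 irradiated mouse 1 stood nearest the sham mice, and without it 7 clock genes were lower and 2 higher at the criterion. Per1 and Per2, the core repressors, overlapped between the groups, with changes of -0.17 ± 0.36 and -0.23 ± 0.20 (limma adjusted p = 0.884 and 0.688). The animals were killed on 1 day, and the sources used here give no hour for either group, so whether the hour of killing differed between the groups was not tested.

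The E-box stood before 5 of the 16 clock genes with a promoter (31.2%) and before 8.73% of all genes with one, searched over the same 250 bases; its letters read the same on both strands. Ciart held 3, and Tef 1 before each of its start sites, and both genes are printed as lower clock genes that carry it, with the E-boxes in capitals.
Ciart (chr3:95882252-95882359, minus strand): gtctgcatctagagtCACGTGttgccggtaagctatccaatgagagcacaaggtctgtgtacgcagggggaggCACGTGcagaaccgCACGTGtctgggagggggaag
Tef (chr15:81802531-81802566, plus strand): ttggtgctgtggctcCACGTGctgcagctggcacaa
Tef (chr15:81811261-81811296, plus strand): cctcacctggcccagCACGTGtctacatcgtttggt
Dbp, Hlf and Nr1d1 held none in this window.

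**Figure D4:**
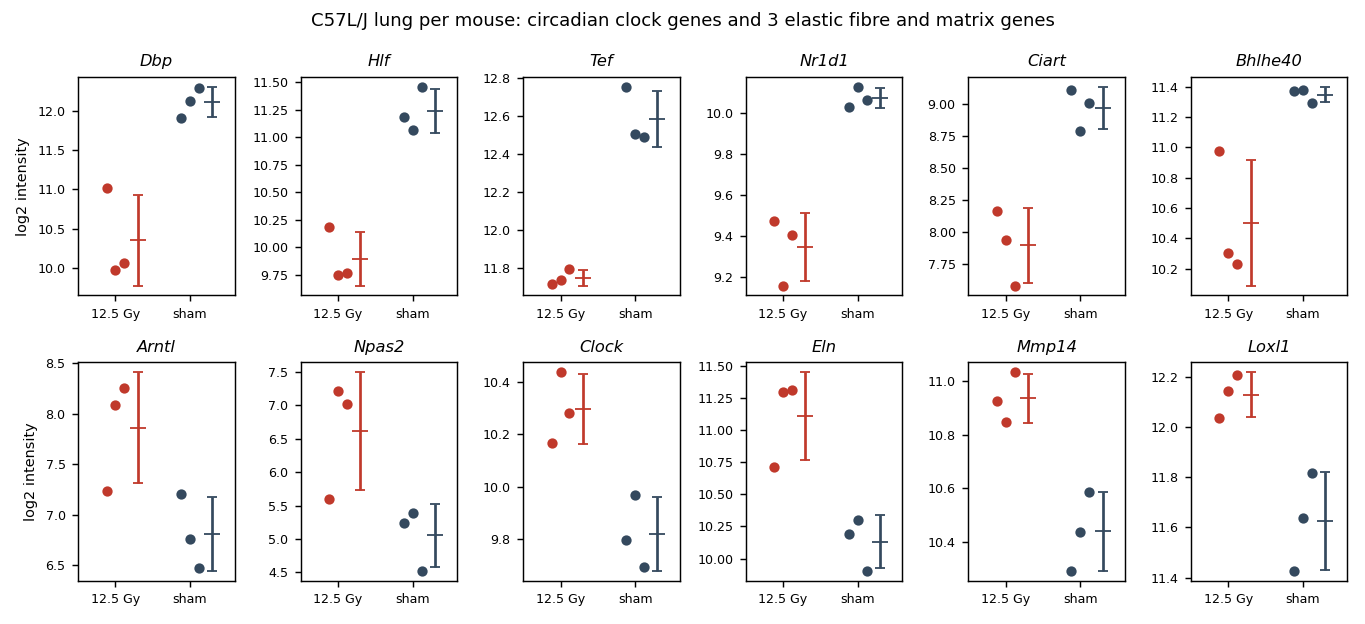
Log2 intensity in each mouse for 9 clock genes and for the elastic fibre and matrix genes Eln, Mmp14 and Loxl1, with 12.5 Gy in red left of sham in blue; bars are the mean ± SD and each panel has its own axis. Dbp, Hlf, Tef, Nr1d1, Ciart and Bhlhe40 lie lower and Arntl, Npas2 and Clock higher in the 12.5 Gy mice, and mouse 1 of the irradiated group is set off from its pair for Dbp, Bhlhe40, Arntl and Npas2.

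Of 34 matrix and fibrosis genes 0 passed after adjustment, with a median change of 0.08. At the criterion 4 were higher and 0 lower, against 1.67% and 2.85% of all genes. Eln, the elastin precursor, lay at 10.71, 11.30 and 11.31 in the 12.5 Gy mice, against 10.19, 10.30 and 9.90 in the sham mice (change 0.97 ± 0.21, limma adjusted p = 0.168), with irradiated mouse 1 lowest of its group and above every sham mouse. Mmp2, a gelatinase, lay at 12.22, 12.04 and 12.33 in the 12.5 Gy mice, against 11.24, 11.42 and 11.25 in the sham mice (change 0.89 ± 0.12, limma adjusted p = 0.0586). Mmp14, the membrane protease that activates it, lay at 10.93, 10.85 and 11.03 in the 12.5 Gy mice, against 10.29, 10.44 and 10.59 in the sham mice (change 0.50 ± 0.12, limma adjusted p = 0.198). Timp1, an inhibitor of these proteases, was higher by 0.77 ± 0.13 (limma adjusted p = 0.0855). Loxl1, which crosslinks elastin, chosen after its values were seen, lay at 12.04, 12.15 and 12.21 in the 12.5 Gy mice, against 11.43, 11.64 and 11.82 in the sham mice, short of the criterion at a change of 0.50 ± 0.13 (limma adjusted p = 0.226). Col1a2, the fibrillar collagen chain, lay at 13.34 to 13.72 on the 6 arrays and changed by 0.04 ± 0.13 (limma adjusted p = 0.934). Leaving out 1 array left 2 to 5 of the list higher at the criterion.

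Of 21 erythroid genes 3 were lower at the criterion, against 2.85% of all genes. Slc4a1, the red cell anion exchanger, lay at 7.05, 6.09 and 6.18 in the 12.5 Gy mice, against 7.68, 8.34 and 8.32 in the sham mice (change -1.67 ± 0.33, limma adjusted p = 0.134). Alas2, which commits haem synthesis in red cells, changed by -1.56 ± 0.31 (limma adjusted p = 0.146), and Bpgm, which makes the haemoglobin effector bisphosphoglycerate, by -0.90 ± 0.20 (limma adjusted p = 0.17). The groups were clear of each other in these genes, and leaving out 1 array left 0 to 4 at the criterion, 0 without 12.5 Gy mouse 2. In the hypoxia list 2 of 23 were higher and 1 lower at the criterion, against 1.67% and 2.85% of all genes. The mTOR inhibitor Ddit4 was higher by 1.27 ± 0.21 (limma adjusted p = 0.0875) and the vasodilator peptide Adm by 1.07 ± 0.21 (limma adjusted p = 0.142). Lists of cholesterol synthesis and retinoic acid metabolism had 0 of 16 and 0 of 15 at the criterion in limma, and 1 and 0 at p under 0.05. In the mast cell list, Kit, the receptor for stem cell factor, changed by -0.80 ± 0.13 (limma adjusted p = 0.0849) and Hdc, which makes histamine, by 0.62 ± 0.14 (limma adjusted p = 0.185). Rgs4, a damper of G protein signals that the study names, lay at 7.75, 7.69 and 7.56 in the 12.5 Gy mice, against 8.62, 8.49 and 8.53 in the sham mice, and fell by 0.88 ± 0.10 (limma adjusted p = 0.0464), with the changes of its 3 probe sets between -0.88 and 0.17. Pon1, the paraoxonase carried on lipoproteins, lay at 11.24, 11.48 and 11.56 in the 12.5 Gy mice, against 12.24, 12.25 and 11.99 in the sham mice (change -0.74 ± 0.14, limma adjusted p = 0.117). Of other genes the study names, Auts2, a neurodevelopmental gene, changed by -0.30 ± 0.13 (limma adjusted p = 0.408) and the glutamate receptor Gria1 by 0.30 ± 0.21 (limma adjusted p = 0.609), short of the criterion.

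The response of C57L/J at 12.5 Gy was set against that of the other strains at the same dose by an interaction term. In limma 215 genes differed from C57BL/6J at p under 0.01 (1.18%), 105 with a more positive change in C57L/J (0.577%) and 110 with a more negative one (0.605%). Against CBA/J the numbers were 233 (1.28%), 136 (0.747%) and 97 (0.533%). In each comparison 182 genes would reach this p by chance. After adjustment 0 genes passed in either, and 992 (5.45%) and 1116 (6.13%) had p under 0.05. Of the 35 genes that rose in C57L/J, 33 were also higher in irradiated C57BL/6J and 32 in irradiated CBA/J lungs, and of the 59 that fell, 55 and 56 were also lower. These strains have their own sham arrays, and the counts are given as a description. The share of all genes with the same sign in these strains was not computed, so the counts have no base rate beside them. Skeletal muscle transcripts stood over 2 units above the median array on 9 of the 27 arrays, among them 2 of C57BL/6J at 12.5 Gy and 2 each of CBA/J at 0 and 12.5 Gy. Without those arrays mouse 3 was the only array of C57BL/6J at 12.5 Gy. CBA/J kept only sham mouse 3 and 12.5 Gy mouse 1. These groups then hold no replicates, so only the size of differences without the muscle arrays is given below.

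Among the 822 genes at the criterion in C57L/J, 67 had an interaction p under 0.01 with C57BL/6J, 72 with CBA/J and 21 with both. Of the 21, 13 had a group mean near background, and the other 8 were Hlf, Ciart, Eln, Mmp14, Rhebl1, Coa4, Vwa7 and Reg4. The same C57L/J arrays chose and tested these genes, so the interaction is no independent observation. Hlf changed by -1.34 ± 0.18 in C57L/J at 12.5 Gy, by -1.12 at 15 Gy, by -0.50 in C57BL/6J and by -0.35 in CBA/J, differences of -0.84 ± 0.24 from C57BL/6J and -0.99 ± 0.21 from CBA/J (limma interaction, adjusted p = 0.828 and 0.455). Ciart changed by -1.07 ± 0.18, -1.19, -0.17 and -0.33 in the same order, differences of -0.90 ± 0.25 and -0.74 ± 0.22 (limma interaction, adjusted p = 0.828 and 0.742). Without the muscle arrays the differences of Hlf were -1.05 from C57BL/6J and -1.01 from CBA/J, and those of Ciart -1.04 and -0.64. Over the clock list the median change was -0.58 at 12.5 Gy and -0.56 at 15 Gy in C57L/J, 0.00 in C57BL/6J and -0.15 in CBA/J, where both C57L/J doses share the sham arrays. Other clock genes were lower in the other strains too. At 12.5 Gy Dbp changed by -1.76 in C57L/J, -0.77 in C57BL/6J and -0.81 in CBA/J. Nr1d1 changed by -0.72, 0.09 and -0.76, and Tef by -0.83, -0.42 and -0.18. Without the muscle arrays Dbp differed by -1.25 from C57BL/6J and -0.27 from CBA/J, and Nr1d1 by -0.46 and -0.22.

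Of the 34 measured matrix genes, 3 had an interaction p under 0.01 against C57BL/6J and 5 against CBA/J. Of all genes 1.18% and 1.28% did. After adjustment 0 matrix genes passed. Loxl1 and Serpinh1, below, were chosen after their values were seen. Eln, the elastin of elastic fibres, changed by 0.97 ± 0.21 in C57L/J at 12.5 Gy, against -0.36 in C57BL/6J and -0.06 in CBA/J, differences of 1.34 ± 0.27 and 1.04 ± 0.30 (limma interaction, adjusted p = 0.723 and 0.73). Without the muscle arrays the differences of Eln were 1.34 from C57BL/6J and 1.55 from CBA/J. At 15 Gy in C57L/J its change was 0.17, with an adjusted p of 0.988 in the direct test of 15 against 12.5 Gy. Loxl1 changed by 0.50 ± 0.13, against -0.21 and -0.34 (both at interaction p under 0.01), and Mmp14 by 0.50 ± 0.12, against -0.11 and -0.14 (both at interaction p under 0.01). At 15 Gy in C57L/J Loxl1 changed by 0.16 and Mmp14 by 0.35. Serpinh1, which is not a member of the list, changed by 0.86 ± 0.10, against 0.33 and -0.22. Its limma interaction p was under 0.01 against CBA/J only. Mmp2, in contrast, was higher by 0.89 ± 0.12, 0.76 and 0.90 in the 3 strains (limma interaction, adjusted p = 0.968 and 0.994). Without the muscle arrays Loxl1 differed by 0.87 from C57BL/6J and 0.86 from CBA/J, and Serpinh1 by 0.51 and 0.92. Mmp14 differed by 0.63 and 0.53. None of the interactions named passed after adjustment over all genes (limma adjusted p at least 0.376).

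For Vpreb1 and Retnla the changes are set side by side. Vpreb1 changed by 2.70 ± 0.30 in C57L/J at 12.5 Gy and 2.60 at 15 Gy, against -0.15 in C57BL/6J and 0.72 in CBA/J (limma interaction, adjusted p = 0.394 and 0.524), from a sham level near background. Retnla changed by 1.46 ± 0.18 and 1.23 in C57L/J, against 0.26 and 0.69 (limma interaction, adjusted p = 0.828 and 0.889). Without the muscle arrays the difference of Retnla from CBA/J was 2.86, against 0.77 with all arrays, but it then rests on 1 sham and 1 irradiated CBA/J array. Cdkn1a changed by 3.30 ± 0.18 in C57L/J, against 3.12 in C57BL/6J and 3.03 in CBA/J, a difference of 0.18 ± 0.28 and 0.27 ± 0.28 (SE, limma interaction, adjusted p = 0.961 and 0.871). Among the 51 genes of the p53 lists 1 had an interaction p under 0.01, Ercc5, a nuclease of excision repair named after its values were seen, at 0.24 ± 0.10 in C57L/J and 0.71 in C57BL/6J (limma interaction, adjusted p = 0.828). The B cell list had a median of -1.28 in C57L/J, against -1.67 in C57BL/6J and -1.75 in CBA/J, and the T cell list -1.12, against -0.75 and -0.71. Of the 27 B cell genes 2 had a limma interaction p under 0.01 against C57BL/6J and 1 against CBA/J. Of the 36 T cell genes 1 did against each strain, as did 1.18% and 1.28% of all genes. The medians of the other strains include the arrays with muscle transcripts, and whether the lists differ between strains was not tested.

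**Figure D5:**
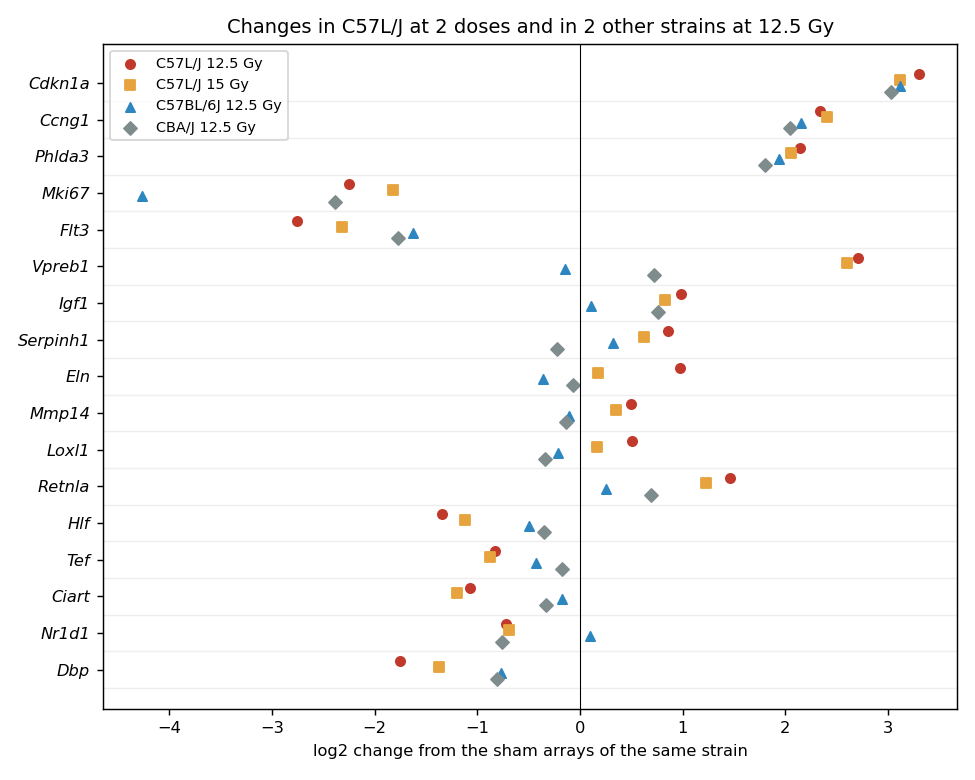
Log2 change from the sham arrays of the same strain for 17 genes, in C57L/J at 12.5 Gy (red circles) and 15 Gy (orange squares), C57BL/6J at 12.5 Gy (blue triangles) and CBA/J at 12.5 Gy (grey diamonds). The markers lie together for Cdkn1a, Ccng1 and Phlda3 and apart for Eln, Hlf and Vpreb1.

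The higher dose was compared with 12.5 Gy directly, within C57L/J. In limma 115 genes differed at p under 0.01 (0.632%), 78 higher (0.429%) and 37 lower (0.203%) at 15 Gy, where 182 would by chance. After adjustment 0 passed, and 572 had p under 0.05 (3.14%). Of the 94 genes that passed between 12.5 Gy and sham, 2 differed between the doses at p under 0.01, both with a group mean near background. Mouse 3 at 15 Gy carried skeletal muscle transcripts at a mean of 13.80, and 180 genes differed without it. Set side by side, Cdkn1a changed by 3.30 ± 0.18 at 12.5 Gy and 3.12 at 15 Gy from the same sham mice, Ccng1 by 2.34 ± 0.12 and 2.40, and Mki67 by -2.25 ± 0.24 and -1.82. These 15 Gy values include mouse 3. The difference of 15 from 12.5 Gy was 0.42 for Mki67 with all arrays and -0.40 without that mouse. For Cdkn1a it was -0.18 and 0.03.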

How the data were processed

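Intensities of 27 Affymetrix mouse arrays were used as the authors deposited them, 1 value per probe set. The methods state quartile normalization, and the submitters' processing notes name Affymetrix Expression Console 1.1. The summary algorithm was found in none of the sources used here. The 2% trimmed mean was 500 on every array, so a shift common to all genes would not show. RNA was used only where its integrity was high, and the arrays were processed and hybridised in one batch per the methods. Values below 1 (65 to 111 of 45101 per array) were set to 1 before log2. Of the probe sets 34958 had 1 gene symbol, 932 several and 9211 none. Each gene was read from its brightest probe set, by the mean of all C57BL/6J and C57L/J arrays, which gave 18194 genes, 9012 of them with more than 1 probe set.

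Groups were compared with lmFit and eBayes of limma 3.58.1 (R 4.3.3) on the arrays compared, with Benjamini-Hochberg adjustment over all genes. All p-values given without another name come from these fits. Nothing in the labels pools mice, so replicates are single animals. The members and gene lists were chosen with earlier results of these data known. Genes were named by a rule: the 15 largest rises and the 15 largest falls at an adjusted p under 0.05 without overlap, up to 5 members per list with the lowest p at the criterion, genes the study names, and markers of lung and of neighbouring tissue. Promoter sequences came from RefSeq (GRCm38.p6). Alternatives covered scaling, a floor of 32, a filter at a mean of 6, all arrays in the fit, a replicate block, single arrays left out, the methods' random variance test, an intensity trend, and the treatment of probe sets. Leaving out arrays with skeletal muscle transcripts, and single arrays for the list counts, were chosen after the data had been seen. The test script was tested on simulated data. The precision is limited by 3 arrays per group.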

Additional observations from a re-analysis of the deposited data

How the results depend on the processing

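The count of genes at p under 0.01 between 12.5 Gy and sham C57L/J lungs stayed within 1.5 times the 822 under every alternative run, but the adjusted count depended on the setting. In place of 94 genes it was 44 after median-centring, 65 after quantile normalization, 194 with a floor of 32, 315 with the filter on low values, 203 with all 27 arrays, 439 with an intensity trend and robust prior, 35 with the mean of the probe sets and 28 with probe sets in place of genes. It was 0 with the replicate block and 0 without any 1 of the 6 arrays. Without 1 array, 554 to 699 genes had p under 0.01. The cause of these shifts was not tested. Under the filter fewer genes entered the fit, and with 1 array left out fewer arrays did. Of the 53 genes with an adjusted p under 0.05 that the naming rule gave, 53 kept p under 0.01 and their direction after quantile normalization, after median-centring, with the replicate block and without each array, 48 with a floor of 32, 49 with all 27 arrays and 48 with the mean of probe sets.

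No source ties the replicate numbers of the labels to a litter or batch. Deviations of same-numbered mice correlated at 0.03, 0.04 and 0.02 over all genes. Over the 13651 genes with a mean of at least 6 they correlated at 0.155, 0.0956 and 0.097, against -0.0959 to 0.0155 for different numbers. Not every pair was over 0.1, so the mice were not treated as paired. Each correlated best with its own number, a hint from the data only. With the replicate block 587 genes had p under 0.01.

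Changes near 0 turned sign: Ager to 0.10 after quantile normalization, Cdh5 to 0.0017 after median-centring. On leaving out 1 array, Per1 ran from -0.49 to 0.21, Foxj1 ran from -0.15 to 0.31 and Col1a2 ran from -0.074 to 0.12.

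For the interaction with C57BL/6J 0 adjusted calls became 3 without the muscle arrays. For that with CBA/J 0 became 4 with a floor of 32 (Igll1, Mppe1, Nog and Rfpl4b), 1 without the muscle arrays, and 0 to 2 without 1 array (Speer6-ps1 without C57L/J sham mouse 1, Cd1d2 and 5430400D12Rik without C57L/J sham mouse 3, C1s1 without CBA/J sham mouse 2). Its count at p under 0.01 was 431 without the muscle arrays and 177 to 624 without 1 array, the most without CBA/J 12.5 Gy mouse 1. For 15 against 12.5 Gy that count was 42 with the filter and 180 without the muscle array, 106 to 180 without 1 array, and 2 genes passed adjustment with all 27 arrays (Col11a1 and Gk5). Low signal limits the calls near background, where 12 of the 94 had a group mean under 5.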

Other observations

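Outside the lists and chosen after their values were seen, a pair of acute-phase genes was higher. Orm1, a plasma glycoprotein of the acute phase, lay at 9.56, 10.12 and 9.90 in the 12.5 Gy mice, against 8.38, 7.12 and 6.45 in the sham mice (change 2.54 ± 0.51, limma adjusted p = 0.142). Saa3, an inflammation-induced apolipoprotein, lay at 11.87, 9.08 and 8.78 in the 12.5 Gy mice, against 7.59, 7.56 and 7.53 in the sham mice (limma adjusted p = 0.332). For both genes the groups did not overlap, and 12.5 Gy mouse 1 stood far above its group for Saa3. Clca1, a mucus-associated gene of goblet cells, lay at 3.32, 2.18 and 2.57 in the 12.5 Gy mice while sham mouse 2 reached 10.41 and sham mouse 1 6.82 (limma adjusted p = 0.346).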
